A study of Mus musculus with 29 samples.

Results

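Calorie restriction (CR) was added to treadmill training in mice, and the transcriptional answer of brown adipose tissue (BAT) was set beside that of gastrocnemius skeletal muscle (SkM). The comparison is the interaction of tissue and diet in trained mice, that is the change from exercise training alone (EX) to CR with exercise training (CREX) in BAT, minus the same change in SkM. It uses 15 of the 29 RNA-seq libraries of the series, 4 BAT EX, 4 BAT CREX, 4 SkM EX and 3 SkM CREX, and all 14410 genes that passed the filter on low counts out of 24770 in the table. All 4 groups came from wild-type (WT) young adult male C57BL/6J mice that ran on a treadmill, and the CREX mice were also given less food than they would eat freely. Each library is the bulk RNA of a whole tissue, so fewer cells of a type and less RNA per cell cannot be told apart. The labels number the libraries but do not say which BAT and SkM libraries came from the same mouse.

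Food restriction lowers insulin and raises circulating glucocorticoid, and it shifts the daily rhythm of peripheral clocks when meals are restricted. BAT burns fatty acids and glucose for heat through uncoupled mitochondria and takes up and stores lipid between bouts of heat production. Skeletal muscle holds slow, oxidative and fast, glycolytic fibres, burns fatty acids during fasting and gives up amino acids when food is short. Many of the regulators concerned, such as the glucocorticoid receptor, the FOXO factors and the clock repressors, are present in both tissues.

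A gene was called when its adjusted p was below 0.05 (edgeR's quasi-likelihood test, Benjamini-Hochberg adjustment over all genes tested) and its fold change exceeded 1.5. The difference between tissues was called for 659 genes, 4.57% of those tested, and was above 0 (BAT responding more positively than SkM) for 355 and below 0 for 304. In BAT, 236 genes rose (1.64% of those tested) and 327 fell (2.27%) from EX to CREX. In SkM, 587 rose (4.07%) and 835 fell (5.79%). Of the 132 genes called in both tissues, 120 moved in the same direction and 12 in opposite directions. Among the 659 genes, 517 had estimates of opposite sign in the 2 tissues, and the absolute change was larger in SkM for 507. Across the 10968 genes measured in both tissues (a mean of at least 1 CPM in each, where CPM are counts scaled to library size with TMM factors), the 2 responses had a Spearman rho of 0.256 and a Pearson r of 0.282, and 59.1% of genes had the same sign. This correlation is across genes, which are not replicates, and the 2 responses share no library.

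The genes fell into classes by these 3 calls. The alike class held 116 genes, called in both tissues in the same direction with the difference not called, of which 40 rose and 76 fell. Another 99 genes differed between tissues and were called in BAT without being called in SkM, 80 of them measured in both. A further 366 differed and were called in SkM without being called in BAT, 331 of them measured in both. Opposite calls were seen for 12 genes, and 4 moved in the same direction with a called difference in size. For the remaining 178 genes with a called difference neither tissue was called by itself, and all 178 had estimates of opposite sign. A missed difference does not show equal responses, and 60 of the 116 alike genes had a 95% interval of the difference that lay within 1 log2 unit of 0. Genes named below for their class had to have CREX and EX libraries apart in each tissue where they were called. For those genes this separation was a condition of naming and adds no support.

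**Figure D1:**
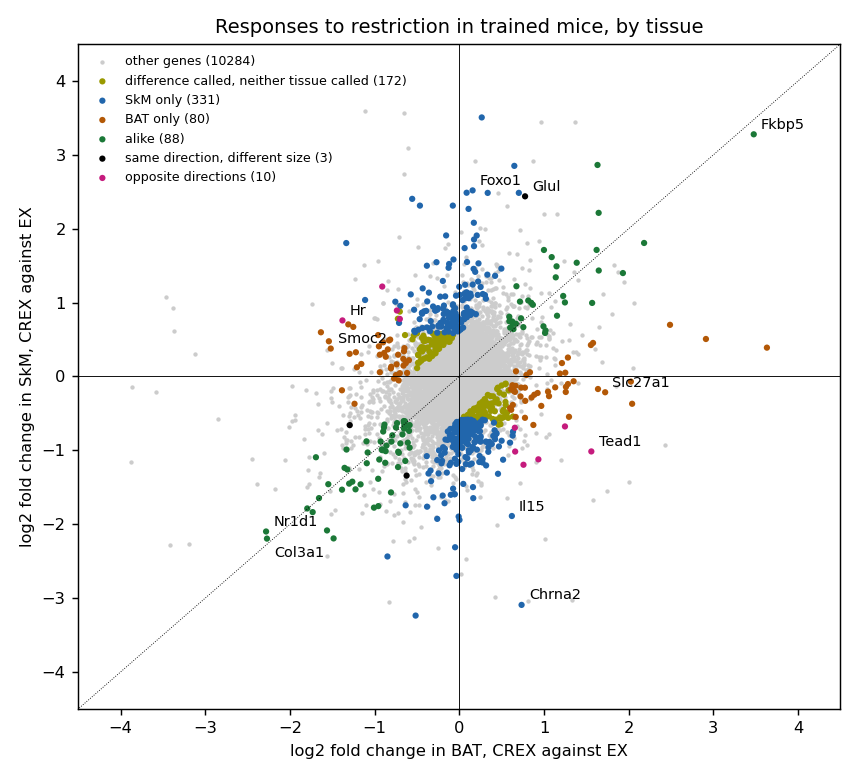
Log2 fold change from EX to CREX in BAT (x axis) and SkM (y axis) for the genes measured in both tissues, with 1 point a gene, coloured by class, and the dotted line marking equal responses. The 88 alike genes lie along the dotted line at the upper right and lower left, the 331 genes called in SkM without BAT spread along the vertical axis, the 80 called in BAT without SkM along the horizontal axis, and 10 genes lie outside the axes.

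The muscle libraries were uneven in a way that bears on every count above. Slow fibre markers (the mean log2(CPM + 1) of 8 genes including Myh7, the slow myosin heavy chain) stood at 5.63, 7.86, 8.43 and 7.30 in SkM EX and at 6.82, 3.98 and 2.68 in SkM CREX (exact permutation test, 2-sided p = 0.114). The SkM CREX library numbered 1 also differed from the other 2 by 118.3 to 127.2 chi-square units per degree of freedom, against at most 51.15 for any other pair of libraries in a group. It stood highest of the 3 in brown adipocyte markers (3.96 against 2.62 and 2.93) and hepatocyte markers (2.46 against 0.36 and 0.473). In SkM EX, replicate 1 stood at 3.9 in brown adipocyte markers, against 2.56 to 2.69 in the others. Without SkM CREX replicate 1 the difference was called for 1660 genes, 646 of the 659 among them. Of the 51 genes named below with a called difference, 34 kept it in each of the 15 fits that left out 1 library (omission fits), and 17 lost it in 1 or more. With the slow fibre level of each SkM library as a covariate, 35 genes were called, of which 31 were among the 659, and all 659 kept the sign of their estimate. The mean slow fibre level was itself 4.49 in SkM CREX and 7.31 in SkM EX, so this covariate partly follows diet. A fit with it cannot fully separate fibre level from diet, and the lower counts do not show which of them the differences go with. In that fit the classes held 22 alike genes, 15 called in BAT without SkM, 15 called in SkM without BAT and 1 called in opposite directions. In BAT, muscle fibre markers ranged from 6.11 to 8.66 in 7 libraries and stood at 0.706 in BAT EX replicate 4; with that level as a covariate 703 genes were called, 601 of the 659 among them. The part of these levels in the results was not tested further. Defining markers fitted the labelled tissues, with brown adipocyte markers at 9.07 to 9.53 in BAT against 2.56 to 3.96 in SkM, and muscle fibre markers at 13.2 to 13.4 in SkM. Totals ran from 21047242 to 24919377 counts a library.

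Genes known to be induced by glucocorticoid rose in both tissues. Of 28 members tested in the list of glucocorticoid receptor targets, 10 rose and 0 fell in BAT, 14 rose and 0 fell in SkM, and 5 were alike. The median log2 change over the list was 0.70 in BAT and 0.89 in SkM, against 0.0 and 0.01 over all genes tested. Fkbp5, a co-chaperone that restrains the glucocorticoid receptor, had 1.85, 4.49, 5.1 and 7.48 CPM in the EX libraries and 47.4, 66.5, 57.1 and 40.3 CPM in the CREX libraries of BAT. It had 19.8, 11.5, 11.5 and 11.1 CPM in the EX libraries and 108, 161 and 124 CPM in the CREX libraries of SkM. In both tissues every CREX library lay above every EX library, and the change was 3.48 ± 0.35, adjusted p = 0.000265 in BAT and 3.28 ± 0.35, adjusted p = 0.000254 in SkM (log2 fold change ± SE, edgeR's quasi-likelihood test as in all that follows). The difference between the 2 changes was 0.20 (95% interval -0.82 to 1.22, adjusted p = 0.854).

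Tsc22d3, which encodes the glucocorticoid-induced leucine zipper, and Zbtb16, a zinc finger transcription factor, followed the same course. Tsc22d3 had 12.7, 24.5, 30.2 and 29.7 CPM in the EX libraries and 53.4, 68.9, 101 and 80.7 CPM in the CREX libraries of BAT. In SkM it stood higher to begin with, at 144, 128, 102 and 97.4 CPM in the EX libraries and 274, 365 and 316 CPM in the CREX libraries. Its changes of 1.65 in BAT and 1.43 in SkM differed by 0.21 (95% interval -0.58 to 1.01, adjusted p = 0.789). Zbtb16 rose by 2.18 in BAT and 1.81 in SkM on the log2 scale, with a difference of 0.37 (95% interval -0.69 to 1.44, adjusted p = 0.709). Cdkn1a, the cell cycle inhibitor p21, rose by 1.39 and 1.54, again with CREX and EX libraries apart in both tissues. Its BAT call was lost in 3 of the 15 omission fits (adjusted p up to 0.0734), those without BAT CREX replicate 2, BAT CREX replicate 4 and BAT EX replicate 2. Ddit4, an inhibitor of mTORC1, was called in SkM (3.45 ± 0.56, adjusted p = 0.00236) and not in BAT (0.96 ± 0.51, adjusted p = 0.306), and its difference of -2.49 (95% interval -4.12 to -0.85, adjusted p = 0.075) missed the threshold. Without SkM CREX replicate 1 that difference was -2.76 (adjusted p = 0.0353).

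Genes of antigen presentation by MHC class II fell in both tissues. Of 9 tested members, 6 of them measured in both tissues, 8 fell in BAT, 6 fell in SkM and 6 were alike, with no member called higher. No difference between tissues was called, against 4.57% of all genes tested. In so short a list this does not show equal responses. The median change was -1.26 in BAT and -1.46 in SkM. H2-Eb1, a beta chain of the class II molecule, had 24, 26.8, 30.1 and 24 CPM in the EX libraries and 9.12, 11.4, 6.15 and 13.5 CPM in the CREX libraries of BAT. In SkM its level was lower, with 6.04, 5.15, 5.27 and 5 CPM in the EX libraries and 2.12, 1.26 and 2.16 CPM in the CREX libraries. The groups did not overlap in either tissue, and the change was -1.39 ± 0.19, adjusted p = 0.000841 in BAT and -1.53 ± 0.25, adjusted p = 0.00139 in SkM, with a difference of 0.15 (95% interval -0.51 to 0.81, adjusted p = 0.831). H2-Aa, the alpha chain of the other class II molecule, fell by 1.26 in BAT and by 1.43 in SkM on the log2 scale (difference 0.16 (95% interval -0.55 to 0.87, adjusted p = 0.826)). H2-DMa, a chain of the peptide loading chaperone, fell by 1.09 and 1.18.

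Class II molecules are made by B cells, macrophages and dendritic cells. The B cell marker score, a mean log2(CPM + 1) over 8 genes, was 0.207 to 0.346 in BAT EX against 0.0203 to 0.0695 in BAT CREX, and 0.0755 to 0.254 in SkM EX against 0.0226 to 0.0311 in SkM CREX, without overlap in either tissue (exact permutation tests, p = 0.0286 and 0.0571, adjusted p = 0.214 for both over 30 tests). Of these 8 genes 2 passed the filter on low counts and 0 were measured in both tissues, so the B cell scores rest on few counts. The macrophage score ran from 2.79 to 3.31 in BAT EX and 2.17 to 2.96 in BAT CREX, and from 1.54 to 2.11 in SkM EX and 1.54 to 2.30 in SkM CREX. The part of these cells in the class II result was not tested.

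The upstream sequences of the class II genes are shown because the genes moved together. The letters CTGATTGG, the form of the Y box known from class II promoters and written in capitals, were searched on both strands in the 250 bases before each RefSeq start site (GRCm38.p6). They occurred in 3 of 9 windows found for the class II list and in 3.83% of all 32851 windows. The last 200 bases before the start site, 5′ to 3′ on the strand of the gene, are given for H2-Aa and H2-Eb1, where the first capital lies at -51 and -62 from the start.
H2-Aa, chr17:34287824-34288023 (minus strand): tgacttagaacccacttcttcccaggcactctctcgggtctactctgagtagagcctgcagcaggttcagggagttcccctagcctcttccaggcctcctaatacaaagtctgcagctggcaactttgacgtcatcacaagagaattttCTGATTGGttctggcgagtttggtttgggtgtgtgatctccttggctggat
H2-Eb1, chr17:34305667-34305866 (plus strand): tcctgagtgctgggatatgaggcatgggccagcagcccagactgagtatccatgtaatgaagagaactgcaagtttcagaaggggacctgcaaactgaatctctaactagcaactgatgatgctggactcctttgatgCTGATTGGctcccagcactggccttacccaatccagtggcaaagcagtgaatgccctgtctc

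Some collagen genes fell in both tissues. Of 28 fibrillar and associated collagens, 13 fell in BAT, 6 fell in SkM and 5 were alike. No difference was called, against 4.57% of all genes tested, and the list medians were -1.29 in BAT and -0.71 in SkM. Col15a1, a collagen of the basement membrane zone, had 23.4, 20.5, 19.4 and 23.9 CPM in the EX libraries and 7.44, 6.76, 4.2 and 7.8 CPM in the CREX libraries of BAT. It had 27.4, 22.6, 17.3 and 24.1 CPM in the EX libraries and 6.86, 6.49 and 5.84 CPM in the CREX libraries of SkM. The levels thus nearly coincided between tissues before and after restriction, and the change was -1.73 ± 0.17, adjusted p = 6.67e-05 in BAT and -1.84 ± 0.19, adjusted p = 9.79e-05 in SkM, with a difference of 0.10 (95% interval -0.42 to 0.63, adjusted p = 0.853). Col3a1, a fibrillar collagen, fell by 2.27 in BAT and 2.20 in SkM, with a wider interval of the difference, -1.61 to 1.45. BAT EX replicate 3 stood at 424 CPM of Col3a1 against 85.4 to 115 in the other BAT EX libraries, and without it the BAT change was -1.44. It was also the highest BAT EX library for Col6a3 (73.8 CPM against 28.8 to 29.3) and Col6a2 (72.2 against 35.8 to 39.4), but not for Col15a1. The BAT count and median of the list include this library and are not given without it. The Col3a1 calls were lost without CREX replicate 1 or 3 in BAT (adjusted p = 0.0506 and 0.051) and without CREX replicate 2 or 3 in SkM (adjusted p = 0.0698 and 0.0647). Sparc, a collagen-binding matrix protein, fell by 0.70 and 0.91. Without BAT EX replicate 3 its BAT change of -0.583 was just under the fold minimum.

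Thy1, a surface protein of fibroblasts and other cells, fell by 1.66 in BAT and 1.65 in SkM, and the membrane-bound chemokine Cx3cl1 fell by 1.80 and 1.79. Fibroblast and progenitor markers, which include Col1a1, also stood lower in CREX without overlap, at 3.45 to 3.55 against 3.66 to 4.84 in BAT and 3.71 to 4.15 against 4.27 to 4.74 in SkM (adjusted p = 0.214 for both, exact permutation test), and their part in the matrix result was not tested. Of 19 basement membrane genes 6 fell in BAT and 4 in SkM. Endothelial markers stood lower in SkM CREX (3.99 to 4.81) than in SkM EX (4.9 to 5.2), with 5 of 10 called lower, and smooth muscle and pericyte markers lower in BAT CREX (4.07 to 4.22) than in BAT EX (4.37 to 4.65), both without overlap (adjusted p = 0.214 for both, exact permutation test). Their part in the basement membrane counts was not tested. Hspg2, the heparan sulfate proteoglycan perlecan, fell by 0.75 in BAT and 0.69 in SkM, although SkM CREX replicate 1 at 134 CPM lay among the EX libraries. Either its BAT or its SkM call was lost in 8 of the 15 omission fits. Smoc2, a secreted relative of Sparc, differed between tissues. It had 26.7, 25.3, 29.1 and 29.7 CPM in the EX libraries and 7.02, 11.4, 9.4 and 10.8 CPM in the CREX libraries of BAT, and 68.1, 56.8, 48.6 and 58.4 CPM in the EX libraries and 49.7, 100.4 and 75.7 CPM in the CREX libraries of SkM. It fell in BAT (-1.52 ± 0.19, adjusted p = 0.000555) and was not called in SkM (0.38 ± 0.20, adjusted p = 0.201), with a difference of -1.90 (95% interval -2.48 to -1.31, adjusted p = 0.00545).

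The clock list split between both patterns. Of 20 members, 4 rose and 2 fell in BAT, 3 rose and 4 fell in SkM, 4 were alike and 2 differed between tissues. Nr1d1, which encodes the clock repressor REV-ERB alpha, had 95.6, 102, 103 and 94.1 CPM in the EX libraries and 19.7, 35.8, 11.4 and 14.2 CPM in the CREX libraries of BAT. It had 161, 113, 139 and 201 CPM in the EX libraries and 30.4, 38.8 and 38.1 CPM in the CREX libraries of SkM. The CREX libraries lay far below the EX libraries in both tissues, with changes of -2.28 ± 0.30, adjusted p = 0.00107 in BAT and -2.10 ± 0.33, adjusted p = 0.00152 in SkM and a difference of -0.18 (95% interval -1.09 to 0.72, adjusted p = 0.846). Bhlhe41, a repressor that binds E-boxes, fell by 1.30 in BAT and 1.45 in SkM (difference 0.15 (95% interval -0.45 to 0.75, adjusted p = 0.806)).

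Cry1, a repressor of the CLOCK complex, differed between tissues. It had 4.4, 6.4, 6.95 and 6.14 CPM in the EX libraries and 20.8, 14.2, 17.6 and 17.6 CPM in the CREX libraries of BAT and 9.07, 11, 9.63 and 8.52 CPM in the EX libraries and 11, 12.7 and 14.8 CPM in the CREX libraries of SkM. Every BAT CREX library lay above every BAT EX library, whereas the highest SkM EX library met the lowest SkM CREX library, and the change was 1.55 ± 0.15, adjusted p = 6.67e-05 in BAT and 0.42 ± 0.16, adjusted p = 0.0739 in SkM, with a difference of 1.13 (95% interval 0.67 to 1.59, adjusted p = 0.0108). Per3, another clock repressor, fell in SkM (-0.77 ± 0.19, adjusted p = 0.0144) and stood at 0.43 in BAT without being called, with a difference of 1.2 (95% interval 0.64 to 1.76, adjusted p = 0.0199). Without SkM CREX replicate 2 or 3 that difference was not called (adjusted p = 0.0519 and 0.0584), and the SkM call was lost in 3 of the 15 omission fits (adjusted p up to 0.0756), those 2 and the one without SkM EX replicate 3. The E-box letters CACGTG occurred in the 250 bases before the start in 6 of 22 windows of the clock list and in 6.02% of all windows. Bhlhe41, which moved alike, and Cry1, which did not, both held them. The last 200 bases before the start are shown with the E-box in capitals, beginning at -153 in Bhlhe41 and -60 in Cry1.
Bhlhe41, chr6:145865421-145865620 (minus strand): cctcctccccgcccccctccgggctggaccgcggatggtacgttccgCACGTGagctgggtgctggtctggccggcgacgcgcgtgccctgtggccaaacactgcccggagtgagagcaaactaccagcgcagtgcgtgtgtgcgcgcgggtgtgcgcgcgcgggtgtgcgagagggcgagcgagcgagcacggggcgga
Cry1, chr10:85185055-85185254 (minus strand): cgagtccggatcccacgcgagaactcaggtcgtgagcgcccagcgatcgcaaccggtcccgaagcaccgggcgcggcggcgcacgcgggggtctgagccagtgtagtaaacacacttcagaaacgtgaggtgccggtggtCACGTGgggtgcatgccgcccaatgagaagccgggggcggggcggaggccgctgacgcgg

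**Figure D2:**
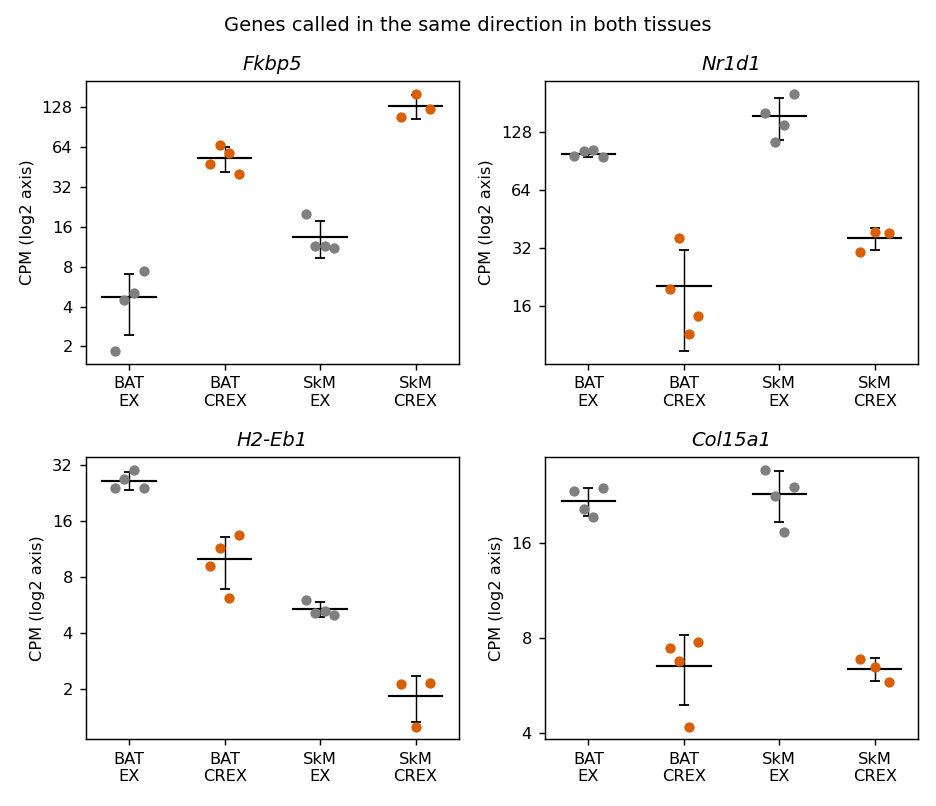
CPM on a log2 axis of 4 genes called in the same direction in BAT and SkM; points are libraries, horizontal lines group means and bars SD (n = 4, and n = 3 for SkM CREX). Fkbp5 rises and Nr1d1, H2-Eb1 and Col15a1 fall from EX to CREX without overlap in either tissue.

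Genes of oxidative metabolism fell in muscle and were not called in BAT. Of 79 nuclear-encoded subunits of oxidative phosphorylation, 20 fell in SkM, 0 were called in BAT and 19 differed between tissues (24.1%, against 4.57% of all genes tested), all with the BAT response above the SkM response. The list median was 0.04 in BAT and -0.42 in SkM. Of 23 genes of the carnitine shuttle and beta-oxidation, 15 fell in SkM, 0 were called in BAT and 9 differed (39.1%), 8 of them with BAT above SkM, and the medians were 0.06 and -0.70. Hadhb, a subunit of the mitochondrial trifunctional protein, had 2196, 1946, 1908 and 2351 CPM in the EX libraries and 2288, 2478, 2283 and 2314 CPM in the CREX libraries of BAT. It had 378, 379.9, 348 and 359.6 CPM in the EX libraries and 258, 149 and 160.4 CPM in the CREX libraries of SkM. Levels in BAT overlapped between diets, and in SkM all 3 CREX libraries lay below the EX libraries. The SkM change was -0.96 ± 0.16, adjusted p = 0.00125, that in BAT 0.16 ± 0.14, adjusted p = 0.563, and the difference 1.11 (95% interval 0.67 to 1.56, adjusted p = 0.01).

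The acyl-CoA dehydrogenases Acads and Acadm fell in SkM by 0.88 and 0.81 and had differences of 1.13 and 1.0. The difference of Acadm was lost in 7 of the 15 omission fits (adjusted p up to 0.0788). Cpt1a, the carnitine palmitoyltransferase of liver and adipose tissue, was the member with the difference below 0 (-0.76, adjusted p = 0.0489) and was not called in either tissue, and its difference was lost in 12 of the 15 omission fits (adjusted p up to 0.116). Atp5g3, which encodes the c subunit of ATP synthase, had 375, 314, 323 and 359 CPM in the EX libraries and 267, 164 and 171 CPM in the CREX libraries of SkM. Its change was -0.77 ± 0.14, adjusted p = 0.00236 in SkM and 0.44 ± 0.13, adjusted p = 0.0594 in BAT, with a difference of 1.21 (95% interval 0.80 to 1.62, adjusted p = 0.00545). Atp5j, another ATP synthase subunit, fell by 0.73 in SkM, and Ndufa1, a complex I subunit, differed between tissues by 0.81. In each of these lists SkM CREX replicate 1 lay nearest to EX for the genes given by library. That library was the highest of its group in slow fibre, brown adipocyte and hepatocyte markers. Without it 35 oxidative phosphorylation and 18 beta-oxidation genes differed. With the slow fibre level as a covariate 0 of either list did, while the median difference went from 0.46 to 0.40 and from 0.76 to 0.47. That covariate partly follows diet in SkM, so the lost calls do not separate fibre level from diet.

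Ribosomal protein genes moved the other way. Of 78, 23 rose in SkM, 0 were called in BAT and 10 differed between tissues (12.8%, against 4.57% of all genes tested), all with SkM above BAT, and the medians were -0.01 in BAT and 0.50 in SkM. Rpl12, of the large subunit, had 129, 118, 144 and 154 CPM in the EX libraries and 196, 306 and 387 CPM in the CREX libraries of SkM. In BAT it had 76.6, 80.1, 88.4 and 73.6 CPM in the EX libraries and 90.3, 78, 83.9 and 80.5 CPM in the CREX libraries. The SkM groups were apart and the BAT groups overlapped, with a difference of -1.06 (95% interval -1.54 to -0.58, adjusted p = 0.0168). Rps4x and Rpl10a rose by 0.89 and 0.82 in SkM. Their differences between tissues were lost in 5 and 9 of the 15 omission fits. These genes have many processed copies in the genome, among which reads may be divided. Without SkM CREX replicate 1, 57 of the 78 differed, and with the slow fibre covariate 0 did, with a median difference of -0.13 in place of -0.51. Here too that covariate partly follows diet, and the fit does not separate fibre level from diet.

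Foxo1 rose in muscle and was not called in BAT. This transcription factor drives atrophy and autophagy genes when insulin is low, and it had 18.5, 17.4, 14.3 and 12.3 CPM in the EX libraries and 62.4, 73.1 and 133 CPM in the CREX libraries of SkM. In BAT it had 31, 54.4, 57 and 57.3 CPM in the EX libraries and 52.8, 69.7, 46.2 and 53.8 CPM in the CREX libraries. The SkM groups were far apart and the BAT groups overlapped, and the change was 2.52 ± 0.28, adjusted p = 0.000254 in SkM and 0.16 ± 0.25, adjusted p = 0.775 in BAT, with a difference of -2.36 (95% interval -3.16 to -1.56, adjusted p = 0.00601). Pik3r1, a regulatory subunit of phosphoinositide 3-kinase, rose by 1.91 in SkM, and its difference of -1.70 was lost in 11 of the 15 omission fits (adjusted p up to 0.0938). Eif4ebp1, a repressor of cap-dependent translation, rose in SkM by 1.21 with a difference of -1.22. Of the 23 atrophy and FOXO-autophagy genes, 4 rose in BAT, 7 rose in SkM, 3 were alike and 4 differed (17.4%, against 4.57% of all genes tested). The alike members were Cdkn1a, Foxo3 and the mTORC1 inhibitor Sesn1, which rose by 0.87 in BAT and 0.97 in SkM. Foxo3 rose by 0.67 and 1.22. Without BAT CREX replicate 3 or BAT EX replicate 1 the BAT change of Foxo3 was 0.512 or 0.581, under the fold minimum. Map1lc3a, the autophagosome protein LC3A, differed by -1.09 without a call in either tissue.

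Of 25 insulin and IGF signalling genes 3 differed between tissues. Igfbp7, a secreted IGF-binding protein, fell in SkM by 0.85, and its difference of 0.82 was lost in 5 of the 15 omission fits (adjusted p up to 0.0798). Grb14, an adaptor that inhibits the insulin receptor, was alike, falling by 1.49 in BAT and 2.19 in SkM. The BAT call was lost in 12 of the 15 omission fits (adjusted p up to 0.128), among them all 8 without a BAT library. SkM CREX replicate 1 had 14.8 CPM against 2.93 and 3.11 in the others, and without it the difference was 1.90 (adjusted p = 0.000231).

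Some lipid genes rose in SkM. Ucp3, the uncoupling protein of muscle mitochondria, rose in SkM (1.19 ± 0.27, adjusted p = 0.00967) and stood at -0.43 ± 0.26, adjusted p = 0.353 in BAT, with a difference of -1.63 (95% interval -2.43 to -0.82, adjusted p = 0.0266). That difference was lost in 5 of the 15 omission fits (adjusted p up to 0.0693). Plin4, a lipid droplet coat protein, rose in SkM by 1.29 with a difference of -1.49. Il15, a cytokine made by muscle, had 8.92, 10.6, 9.29 and 8.52 CPM in the EX libraries and 4.47, 1.44 and 1.64 CPM in the CREX libraries of SkM and 1.85, 2.5, 1.81 and 1.54 CPM in the EX libraries and 2.35, 2.74, 3.86 and 2.9 CPM in the CREX libraries of BAT. It fell in SkM (-1.89 ± 0.31, adjusted p = 0.00133) and had a difference of 2.51 (95% interval 1.61 to 3.41, adjusted p = 0.00605), which was 3.21 without SkM CREX replicate 1.

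Chrna2, a nicotinic receptor subunit, had 2.38, 1.57, 3.05 and 2.3 CPM in the EX libraries and 0.587, 0.18 and 0.0432 CPM in the CREX libraries of SkM, where 3 counts correspond to about 0.13 CPM. Its fitted change in SkM was -3.09 ± 0.53, adjusted p = 0.00185, and its difference 3.83 (95% interval 2.47 to 5.19, adjusted p = 0.00601), or 5.06 without SkM CREX replicate 1. The chemokine Cxcl9 fell by 3.24 and the matrix protein gene Papln by 2.7 in SkM, with differences of 2.72 and 2.67, the latter 3.28 without SkM CREX replicate 1. Cxcl9 stood at 0.316, 0.405 and 0.0865 CPM in the SkM CREX libraries, so its fold change there rests on few counts. In BAT its estimate was -0.52 (adjusted p = 0.179), not called, although every CREX library lay below every EX library. The difference of Cxcl9 was lost with limma voom. Adora1, the adenosine A1 receptor, rose in SkM from 1.37 to 6.83 CPM on average, with a difference of -2.78 (95% interval -3.93 to -1.62, adjusted p = 0.0145). E2f2, a cell cycle transcription factor, rose in SkM (1.81 ± 0.52, adjusted p = 0.0271) and stood at -1.34 ± 0.51, adjusted p = 0.142 in BAT. Its difference of -3.14 was lost in 6 of the 15 omission fits (adjusted p up to 0.0669) and its SkM call in 5 of the 15 omission fits (adjusted p up to 0.161); without SkM CREX replicate 3 they were -2.54 and 1.2.

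Class I presentation genes fell in SkM with called differences for a few. Of 14 class I and immunoproteasome genes, 2 fell in BAT and 7 in SkM, and 2 differed (14.3%, against 4.57% of all genes tested). Psmb9, a catalytic subunit of the immunoproteasome, fell in SkM by 1.5 and stood at 0.16 in BAT (difference 1.66 (95% interval 0.88 to 2.44, adjusted p = 0.0196)), and without SkM CREX replicate 3 the difference missed the threshold (adjusted p = 0.053). Tapbp, the peptide loading factor tapasin, differed by 0.76 (95% interval 0.49 to 1.03, adjusted p = 0.00601) with neither tissue called. Whether the class I list differs from the class II list was not tested. Of 21 interferon-stimulated genes, 2 fell in BAT and 9 fell in SkM, with no difference called, against 4.57% of all genes tested. Of 20 genes of branched-chain amino acid breakdown, 0 were called in either tissue, and 3 differed with BAT above SkM, among them the transaminase Bcat2 (0.89) and the dehydrogenase subunit Bckdha (0.62), which were lost in 11 and 10 of the 15 omission fits.

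**Figure D3:**
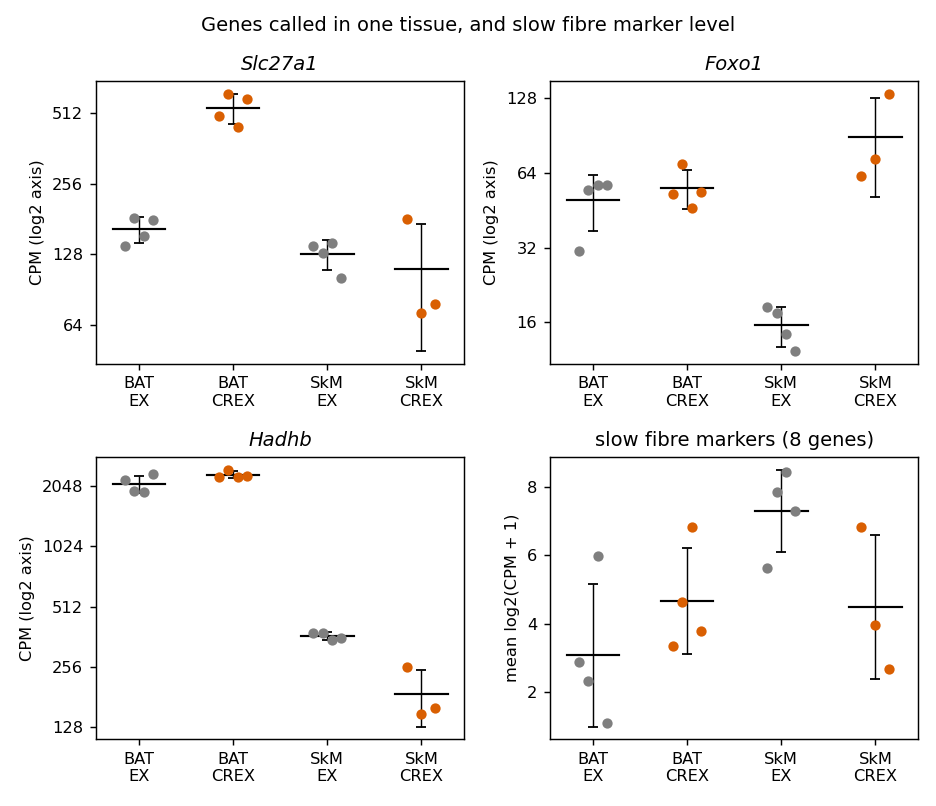
CPM on a log2 axis of Slc27a1, Foxo1 and Hadhb, and the slow fibre marker level (mean log2(CPM + 1), linear axis) in the same libraries; points are libraries, horizontal lines means and bars SD (n = 4, and n = 3 for SkM CREX). Slc27a1 is apart between diets in BAT, Foxo1 and Hadhb in SkM, and of the SkM CREX libraries the one with the slow fibre level of 6.82 has the Hadhb level nearest to the EX libraries.

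Several lipid genes rose in BAT without a call in muscle. Slc27a1, a fatty acid transport protein, had 139, 182, 153 and 179 CPM in the EX libraries and 498, 619, 448 and 591 CPM in the CREX libraries of BAT. In SkM it had 139, 130.3, 143 and 102 CPM in the EX libraries and 181, 72.1 and 78.7 CPM in the CREX libraries, so the EX levels of both tissues were alike in CPM and the CREX levels were not. The BAT groups were apart and the SkM groups overlapped, with changes of 1.72 ± 0.25, adjusted p = 0.0015 in BAT and -0.21 ± 0.26, adjusted p = 0.607 in SkM and a difference of 1.94 (95% interval 1.16 to 2.71, adjusted p = 0.0108). The overlap in SkM came from CREX replicate 1, at 181 CPM, and the other SkM CREX libraries lay below every SkM EX library. Without SkM CREX replicate 1 the difference was 2.49 (adjusted p = 5.04e-06).

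Acot1, a cytosolic acyl-CoA thioesterase with close copies in the genome among which reads may be divided, rose in BAT by 2.04, with BAT CREX replicate 3 at 15.1 CPM against 43.7 to 45.3 in the others, and its difference was 2.41 (95% interval 1.05 to 3.77, adjusted p = 0.0435). That difference was lost in 12 of the 15 omission fits (adjusted p up to 0.126) and with limma voom. Cyp4b1, a cytochrome P450, rose in BAT by 2.02 with a difference of 2.10. Of the 20 PPAR targets for lipid handling, 2 rose in BAT, Acot1 among them, while 2 rose and 5 fell in SkM.

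Some genes of sterol synthesis rose in BAT. Of 23 sterol genes, 2 rose in BAT and 1 in SkM, and 2 differed (8.7%, against 4.57% of all genes tested), with medians of 0.43 in BAT and -0.07 in SkM. Fdft1, squalene synthase, had 86.2, 65.9, 83.9 and 105 CPM in the EX libraries and 183, 199.8, 291 and 195 CPM in the CREX libraries of BAT. In SkM it had 85.7, 89.6, 89.2 and 78.7 CPM in the EX libraries and 92.2, 78.1 and 75.6 CPM in the CREX libraries. Each BAT CREX library exceeded each BAT EX library and the SkM groups overlapped, with changes of 1.35 ± 0.15, adjusted p = 0.000214 in BAT and -0.07 in SkM and a difference of 1.41 (95% interval 0.94 to 1.89, adjusted p = 0.00545). Cyp51, the lanosterol demethylase, rose in BAT by 0.60 with a difference of 1.03, and 1 or both of these calls were lost in 9 of the 15 omission fits. Of 20 fatty acid synthesis genes, 2 rose in BAT, 3 rose and 1 fell in SkM and 1 differed, with medians of 0.42 in BAT and 0.51 in SkM. That share of called differences, 5.0%, is near the 4.57% of all genes tested. Fads1, the fatty acid delta-5 desaturase, rose in BAT by 1.19 with a difference of 1.15 (95% interval 0.77 to 1.53, adjusted p = 0.00545).

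Other genes fell in BAT without a call in SkM. Apoe, the lipid carrier apolipoprotein E, had 416, 451, 518 and 393 CPM in the EX libraries and 288, 208, 227 and 229 CPM in the CREX libraries of BAT. In SkM it had 60.1, 41, 41.9 and 32.8 CPM in the EX libraries and 74.4, 43 and 64.2 CPM in the CREX libraries. It fell in BAT (-0.90 ± 0.19, adjusted p = 0.0123), stood at 0.46 ± 0.20, adjusted p = 0.122 in SkM where the groups overlapped, and differed by -1.36 (95% interval -1.94 to -0.78, adjusted p = 0.0134). The matrix protein genes Spon1 and Mxra8 fell in BAT by 1.64 and 1.25 and had SkM estimates of 0.60 and 0.67, with differences of -2.23 and -1.92. Without BAT EX replicate 3 the difference of Spon1 was -1.65. The BAT call of Mxra8 was lost without BAT CREX replicate 1, 3 or 4 (adjusted p = 0.0841, 0.0667 and 0.068), and its difference without SkM CREX replicate 2 or 3 (adjusted p = 0.0528 and 0.0571). BAT EX replicate 3 was the highest library for both, at 7.18 and 15.8 CPM, and it also had the highest BAT fibroblast marker level, 4.84.

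Opposite directions were called for 12 genes, 10 of them measured in both tissues. Of these 10, 6 rose in BAT and fell in SkM, and 4 fell in BAT and rose in SkM. For the 9 named here the difference itself was called in all 15 omission fits, while the call in 1 tissue was often lost and is given with each gene. Tead1, the DNA-binding partner of the coactivator YAP, had 19.4, 20.1, 30.8 and 12.1 CPM in the EX libraries and 44.7, 62, 71.7 and 64.7 CPM in the CREX libraries of BAT. It had 179, 197, 149 and 189.6 CPM in the EX libraries and 112, 90.3 and 62.9 CPM in the CREX libraries of SkM. The tissues thus approached each other under restriction, without overlap of the diets in either tissue, with changes of 1.56 ± 0.25, adjusted p = 0.00374 in BAT and -1.02 ± 0.27, adjusted p = 0.0197 in SkM and a difference of 2.57 (95% interval 1.78 to 3.37, adjusted p = 0.00545). With the muscle fibre level of BAT as a covariate the difference was 2.43 (adjusted p = 0.00121). The SkM call was lost without SkM CREX replicate 2 or 3 (adjusted p = 0.0695 and 0.0929).

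Gstt2, a theta class glutathione transferase, had 15.1, 15.3, 14.2 and 16.9 CPM in the EX libraries and 34.2, 38.5, 31.1 and 41.9 CPM in the CREX libraries of BAT and 2.92, 3.04, 3.58 and 3.11 CPM in the EX libraries and 2.89, 1.89 and 1.17 CPM in the CREX libraries of SkM. In SkM, CREX replicate 1 at 2.89 CPM lay just below the EX libraries, and the changes were 1.25 ± 0.15, adjusted p = 0.000412 and -0.68 ± 0.22, adjusted p = 0.0391, with a difference of 1.92 (95% interval 1.36 to 2.49, adjusted p = 0.00384). Phyhd1, a member of the phytanoyl-CoA dioxygenase family, had 8.62, 9.28, 9.41 and 8.9 CPM in the EX libraries and 12.7, 14.1, 16.1 and 14.3 CPM in the CREX libraries of BAT and 27.5, 25, 24.5 and 23.9 CPM in the EX libraries and 16.3, 10.4 and 10.7 CPM in the CREX libraries of SkM. Its difference was 1.68 (95% interval 1.28 to 2.07, adjusted p = 0.000981). The SkM call of Gstt2 was lost in 6 of the 15 omission fits (adjusted p up to 0.17), with limma voom, after thinning and with the slow fibre covariate, whereas Phyhd1 kept all its calls in these omission fits. The differences between tissues of Gstt2, Phyhd1 and Adora1 were still called with the slow fibre covariate, at 1.38, 1.47 and -3.43 (adjusted p = 0.0353, 0.027 and 0.0414). The potassium channel gene Kcnk2 rose by 0.93 in BAT and fell by 1.12 in SkM, and the chondroitin sulfotransferase gene Chst15 rose by 0.76 and fell by 1.2. A call in 1 tissue was lost for Kcnk2 in 5 and for Chst15 in 6 of the 15 omission fits.

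Among genes that fell in BAT and rose in SkM, Hr, a nuclear receptor corepressor, had 17, 6.32, 8.58 and 9.59 CPM in the EX libraries and 3.81, 4.64, 3.48 and 3.97 CPM in the CREX libraries of BAT. It had 57.1, 68.5, 54.3 and 67.4 CPM in the EX libraries and 108, 116 and 88.8 CPM in the CREX libraries of SkM. The diets were apart in both tissues, with a difference of -2.14 (95% interval -2.86 to -1.42, adjusted p = 0.00601). The SkM call of Hr was lost in each of the 7 omission fits without an SkM library (adjusted p up to 0.136). Traf3ip2, an adaptor of the interleukin-17 receptor, had 1.38, 2.08, 1.66 and 1.14 CPM in the EX libraries and 0.56, 0.995, 0.879 and 0.891 CPM in the CREX libraries of BAT and 4.46, 4.32, 4.11 and 4.64 CPM in the EX libraries and 7.13, 12.7 and 10.7 CPM in the CREX libraries of SkM, with a difference of -2.13 (95% interval -2.81 to -1.44, adjusted p = 0.00545). Its BAT call was lost in 9 of the 15 omission fits (adjusted p up to 0.114). Cdkn1c, the cell cycle inhibitor p57, fell by 0.70 in BAT and rose by 0.78 in SkM, whereas its relative Cdkn1a rose in both. The LIM domain gene Limd2 fell by 0.74 and rose by 0.89. The BAT calls of Cdkn1c and Limd2 were lost in 4 and 5 of the 15 omission fits.

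**Figure D4:**
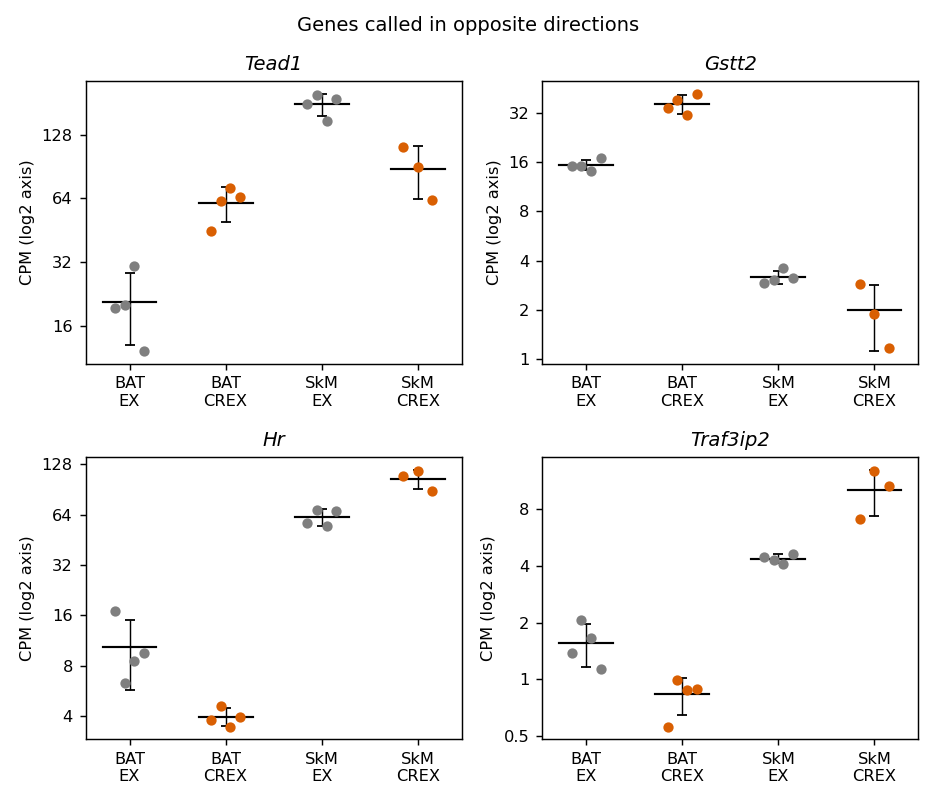
CPM on a log2 axis of 4 genes called in opposite directions in BAT and SkM; points are libraries, horizontal lines means and bars SD (n = 4, and n = 3 for SkM CREX). Tead1 and Gstt2 rise in BAT and fall in SkM, and Hr and Traf3ip2 fall in BAT and rise in SkM; for each of the 4 genes the call in 1 tissue was lost in 2 to 9 of the 15 omission fits.

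Size alone differed for 4 genes, 3 of them measured in both tissues. Glul, glutamine synthetase, had 1181, 1181, 1151 and 1646 CPM in the EX libraries and 1746, 2356, 2634 and 2096 CPM in the CREX libraries of BAT. It had 209, 193, 169 and 98 CPM in the EX libraries and 774, 1046 and 896 CPM in the CREX libraries of SkM, from a lower start. It rose in both, by 0.78 ± 0.21, adjusted p = 0.0382 in BAT and 2.44 ± 0.22, adjusted p = 3.52e-05 in SkM, with a difference of -1.66 (95% interval -2.30 to -1.02, adjusted p = 0.00829). The BAT call of Glul was lost in 6 of the 15 omission fits (adjusted p up to 0.106). Glul was also the 1 glucocorticoid receptor target with a called difference. Slc40a1, the iron exporter ferroportin, had changes of -1.30 in BAT and -0.66 in SkM, but the difference between them (adjusted p = 0.0458) was lost in 13 of the 15 omission fits (adjusted p up to 0.0978), with limma voom and with the muscle fibre level of BAT as a covariate. The G protein gamma subunit gene Gng11 had changes of -0.62 in BAT and -1.34 in SkM, and that difference was lost in 7 of the 15 omission fits (adjusted p up to 0.0768). Of 19 genes of amino acid synthesis and one-carbon metabolism, 2 differed (10.5%, against 4.57% of all genes tested), Glul among them, and the alanine transaminase Gpt2 and the proline dehydrogenase Prodh were alike. Gpt2 rose by 1.0 in BAT and 1.71 in SkM, and without SkM CREX replicate 1 its difference was called (-0.91, adjusted p = 0.0279). Prodh rose by 1.15 and 0.82. The SkM call of Prodh was lost in 6 of the 15 omission fits (adjusted p up to 0.0999).

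The other lists are given by their counts, beside the 4.57% of all genes with a called difference. Of 20 genes of thermogenesis and brown fat identity, 12 of them measured in both tissues, 1 rose and 2 fell in BAT, 4 fell in SkM and 0 differed. Ucp1, the uncoupling protein that makes heat in brown fat, had 3621, 3777, 3032 and 2742 CPM in the EX libraries and 1285, 2267, 1327 and 1809 CPM in the CREX libraries of BAT, where the change was -0.98 ± 0.28, adjusted p = 0.0643, and its mean in SkM EX was 0.0255 CPM. In the lists of triglyceride synthesis (16 tested), heat shock chaperones (23), proteasome subunits (31) and cell proliferation (16, of which 5 were measured in both tissues), 0 genes differed. In lists of this size a count of 0 does not show equal responses. The immediate early genes had 0 called differences of 21, and 2 calls in SkM, Egr1 and Nr4a3, which rested on SkM CREX replicate 3. Nr4a3 stood at 288 CPM there against 2.44 and 3.11 in the other SkM CREX libraries. In the xenobiotic and glutathione list 5 of 32 differed (15.6%), Gstt2 among them. Glycolysis and glucose transport had 1 difference of 24 (4.17%), endoplasmic reticulum chaperones 1 of 19 (5.26%), lipolysis and lipid droplets 2 of 21 (9.52%) and adipokines 2 of 19 (10.5%).

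**Figure D5:**
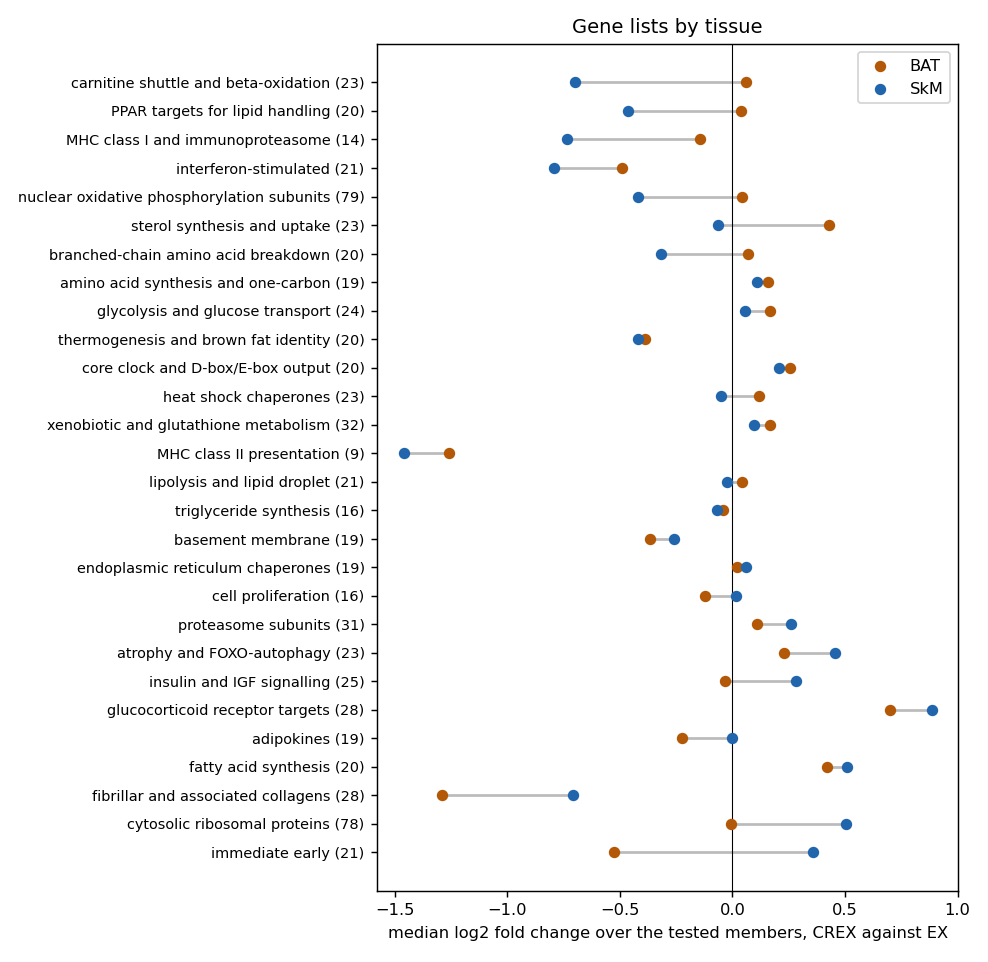
Median log2 fold change from EX to CREX over the tested members of each gene list (number tested in brackets), BAT and SkM joined by a grey line, sorted by the median difference. Beta-oxidation, oxidative phosphorylation and ribosomal proteins have medians near 0 in BAT and away from 0 in SkM, while glucocorticoid receptor targets, collagens and MHC class II genes have medians of the same sign in both.

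In sedentary mice the same tissue difference was computed from 14 other libraries. Across genes measured in both tissues the trained and sedentary differences had a Spearman rho of 0.651, given as a description. The difference between the trained and the sedentary tissue difference (the 3-way interaction over 29 libraries) was called for 0 of 14865 genes (0.0%) by edgeR, whose smallest adjusted p was 0.748, with 665 genes at an unadjusted p under 0.05. DESeq2 called 0, with 681 at an unadjusted p under 0.05. Without SkM CREX replicate 1, 53 genes were called. The sedentary differences of some of the genes above went the same way, such as Tead1 (2.89), Foxo1 (-2.44), Apoe (-2.23) and Cdkn1c (-1.77). Others had sedentary differences of the same sign that were not called, among them Il15 (1.24), Cxcl9 (1.055), Spon1 (-0.77), Per3 (0.68) and Gng11 (0.26).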

How the data were processed

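RNA-seq libraries of BAT and gastrocnemius SkM from trained mice, with and without CR, were analysed, 15 of the 29 libraries of the series. Per the study's methods, the authors trimmed the reads, mapped them to the mouse genome mm10 with STAR and counted them per gene with RSEM; the submitters' processing notes name STAR 2.7.10a and RSEM 1.2.28. The annotation used for counting is not given in the sources used here. The deposited values are RSEM expected counts per gene symbol, not normalized, and were rounded to whole numbers. Of 24770 symbols, 27 read as dates, the mark of spreadsheet conversion, and 2 were duplicated, and none of these is named. A count total of 21047242 to 24919377 a library puts 3 counts at 0.12 to 0.142 CPM, and intervals cover the spread between libraries.

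edgeR 4.0.16 (R 4.3.3, limma 3.58.1) was used with TMM scaling over the 15 libraries, filterByExpr by group, 1 mean per group and the robust quasi-likelihood test, with Benjamini-Hochberg adjustment over 14410 genes. SE was derived from the F statistic, and where the absolute log2 difference between tissues was below 0.1 its SE was computed from those of the 2 responses. Tested on simulated data for the tissue interaction (14230 genes), this recovered 54 of 100 genes changed 2-fold and 86 of 100 changed 4-fold, with 8 of 14030 unchanged genes called. The changes were placed in BAT CREX only, in genes well counted in both tissues. No simulated library deviated as a whole in the way SkM CREX replicate 1 did, so recovery and false calls in the real data may be worse. DESeq2 1.42.0, limma voom, other scalings, filters, covariates and replicate sets were alternatives; the slow fibre covariate and the joint removal of the SkM libraries richest in adipocyte RNA were chosen after seeing the data. Levels are TMM-scaled CPM and are not divided by gene length.

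Marker scores are means of log2(CPM + 1) and were compared by exact 2-sided permutation tests, which cannot go below p = 0.0286 for 4 against 4 libraries and 0.0571 for 4 against 3. The members, gene lists and rules were chosen with earlier results of these data known. Genes named are up to 5 per class, measured in both tissues with libraries apart wherever called and with the largest changes, and up to 3 members per list with the smallest p for the difference or for both responses; unnamed gene models were skipped. The text leaves out some genes that qualify. Of the symbols tested, 13661 matched a RefSeq gene of GRCm38.p6, the source of promoter sequences. Whether replicates came from separate litters or cages is not stated, so p-values rest on the spread between these libraries.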

Additional observations from a re-analysis of the deposited data

Results flagged for a closer look

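The difference between the BAT and SkM responses passed the test for the following genes named in the text, given as log2 differences (edgeR's quasi-likelihood test). BAT responded more positively than SkM for Chrna2 (3.83), Cxcl9 (2.72), Papln (2.67), Tead1 (2.57), Il15 (2.51), Acot1 (2.41), Cyp4b1 (2.1), Kcnk2 (2.06), Chst15 (1.95), Slc27a1 (1.94), Gstt2 (1.92), Phyhd1 (1.68), Psmb9 (1.66), Fdft1 (1.41), Atp5g3 (1.21), Per3 (1.2), Fads1 (1.15), Acads (1.13), Cry1 (1.13), Hadhb (1.11), Cyp51 (1.03), Acadm (0.997), Bcat2 (0.891), Atp5j (0.839), Igfbp7 (0.821), Ndufa1 (0.812), Tapbp (0.758), Gng11 (0.72) and Bckdha (0.62). SkM responded more positively than BAT for E2f2 (-3.14), Adora1 (-2.78), Foxo1 (-2.36), Spon1 (-2.23), Hr (-2.14), Traf3ip2 (-2.13), Mxra8 (-1.92), Smoc2 (-1.9), Pik3r1 (-1.7), Glul (-1.66), Limd2 (-1.63), Ucp3 (-1.63), Plin4 (-1.49), Cdkn1c (-1.48), Apoe (-1.36), Eif4ebp1 (-1.22), Map1lc3a (-1.09), Rpl12 (-1.06), Rps4x (-0.959), Rpl10a (-0.888), Cpt1a (-0.761) and Slc40a1 (-0.635).

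In groups of 4 libraries, 1 library lay far from the other 3 for some of the named genes and marker scores (Dixon's criterion, which chance meets in about 1 in 20 groups; groups of 3 were not tested). The log2(CPM + 1) of that library was the lone value in BAT EX for Hspg2 (6.94), Col6a3 (6.22), Foxo1 (5.0) and Glul (10.7), in BAT CREX for Hspg2 (6.23), Col6a3 (4.56), Sesn1 (4.76), Hadhb (11.3), Tapbp (6.08), Acot1 (4.01), Spon1 (1.29) and Chst15 (5.78) and in SkM EX for Fkbp5 (4.38), Adora1 (0.689) and Ucp1 (0.14). The marker score of that library was the lone value in BAT EX for hepatocyte markers (3.18), in BAT CREX for satellite cell markers (0.607), neutrophil markers (0.521) and hepatocyte markers (2.31) and in SkM EX for brown adipocyte markers (3.9). The SkM EX library high in brown adipocyte markers is replicate 1, and Foxo1 and Acot1 each had a single low BAT library.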

How the results depend on the processing

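Without SkM CREX replicate 1 the difference was called for 1660 genes, without SkM CREX replicate 2 for 302 and without SkM CREX replicate 3 for 332. Over all 15 fits that left out 1 library, counts ran from 302 to 1660 for the difference, 320 (without BAT CREX replicate 1) to 685 for the BAT response, 859 (without SkM CREX replicate 2) to 2421 for the SkM response, 70 (without BAT CREX replicate 3) to 163 for alike genes, 56 to 132 for BAT alone, 152 to 1149 for SkM alone, 4 (without BAT CREX replicate 1) to 28 for opposite directions and 0 to 24 for size alone; rho ran from 0.221 to 0.277, and the 3-way interaction from 0 to 53. The upper counts are without SkM CREX replicate 1. The SkM responses of Egr1 and Nr4a3 turned to -0.50 and -0.0201 with the slow fibre covariate, and that of Egr1 ran from -0.37 without SkM CREX replicate 3 to 4.15 without replicate 2.

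With the slow fibre covariate, counts were 35 for the difference, 135 for the SkM response, 22 alike, 15 for BAT alone, 15 for SkM alone, 1 opposite and 1 by size, with rho 0.274. In SkM that covariate partly follows diet, so these counts do not separate fibre level from diet. Leaving out both SkM libraries richest in adipocyte RNA gave 1480, 2207 for the SkM response, 1023 for SkM alone, 27 opposite, 19 by size and rho 0.223. DESeq2 gave 998, 21 opposite and 9 by size. All 29 libraries in 1 fit gave 854 for the BAT response, 178 alike, 20 opposite and 8 by size. Without a fold minimum there were 880 for the BAT response, 2642 for the SkM response, 193 alike, 574 for SkM alone and 36 opposite. At an unadjusted p there were 1744 differences, 1409 for the BAT response, 327 alike, 300 for BAT alone, 874 for SkM alone, 51 opposite, 33 by size and 493 for the 3-way interaction. Limma voom gave 1 by size and the muscle covariate 2. Among named genes, limma voom also lost the differences of Cxcl9, Cyp51, Psmb9, Ucp3, Gng11 and Cpt1a. It lost the SkM calls of Kcnk2, Chst15, Per3 and Prodh and the BAT calls of Glul and Traf3ip2 as well. Other scalings, filters and thinning to equal totals kept each count within 1.5 times. The causes were not tested.

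Whether equal replicate numbers mark the same mouse is not known. The mean correlation of same-numbered deviations over 7 pairs was -0.0756, and 0 of 7 libraries correlated best with their own number. Deviations in different tissues of a mouse need not correlate, so these values do not decide whether the samples are paired. A replicate block by number within treatment left 22 called differences and a replicate block by number 480, with 2 by size. In simulated data of this depth and group size, without a deviant library, 54 of 100 differences of 2-fold placed in well-counted genes of BAT CREX were recovered.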
